A study of Rattus norvegicus with 8 samples.

Results

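The circadian clock genes described here are the 10 genes Per1, Per2, Per3, Cry1, Cry2, Arntl, Clock, Nr1d1, Nr1d2 and Dbp, chosen by name from the probe annotation of the arrays. They are 10 of the 26269 gene names on the array design, read by 16 of its 30367 probes. Hypothalamic RNA came from 4 lactating Wistar rats exposed to TCDD and from 4 control dams, all at postpartum day 7. TCDD, a dioxin, acts through the aryl hydrocarbon receptor, a protein of the same basic helix-loop-helix and PAS family as ARNTL and CLOCK. Each dam's Cy3-labelled cRNA was hybridised to 1 Agilent whole-genome array in 1 colour. The sources used here give neither the dose, route and time of exposure nor what the control dams received, nor the hour at which tissue was taken.

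The mammalian clock is a transcriptional loop. ARNTL (also called BMAL1) and CLOCK form a dimer that binds E-box elements and switches on the Per, Cry, Nr1d1, Nr1d2 and Dbp genes. PER and CRY proteins then repress that dimer, NR1D1 and NR1D2 repress Arntl, and DBP activates genes with a D-box. In rodent tissues with a running clock, Dbp and the Per genes peak when Arntl is low, so a sample's levels depend on the hour of collection. The suprachiasmatic nucleus, which sets the body's rhythm, is a small part of the hypothalamus, and the other cells of the block carry clocks too. In bulk tissue, fewer cells of a type and less RNA per cell cannot be told apart.

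The 5 probes that follow read Arntl, Dbp, Nr1d1 and Nr1d2. Arntl and Dbp are used below to describe clock phase. Of the members, Nr1d1 and Nr1d2 had the smallest limma p-values between the groups. The Nr1d1 and Nr1d2 probes are the ones their values come from. The Arntl and Dbp probes shown are the dimmer ones of their genes, used here to check the brightest. The values, phase index and correlations of these 2 genes come from their brightest probes, at chr1:171161969-171162028 for Arntl and chr1:96178423-96178482 for Dbp on the plus strand of rn4, whose sequences are not shown. Each is 60 bases long and written in the sense of the transcript as in the scanner files, with nothing in capitals. The files place the dimmer Arntl probe at chr1:171154767-171154826 and the dimmer Dbp probes at chr1:96178064-96178123 and chr1:96178148-96178207, all on the plus strand of rn4. They place the Nr1d1 probe on the minus strand of chr10:87543165-87543519, so that its 60 bases cover 355 bases of the genome, and give the Nr1d2 probe no position. Whether a probe lies in coding or untranslated exon is not given, since no rn4 annotation was used.
Arntl dimmer probe: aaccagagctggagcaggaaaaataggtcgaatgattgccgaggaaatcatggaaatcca
Dbp first dimmer probe: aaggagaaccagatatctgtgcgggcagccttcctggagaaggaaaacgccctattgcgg
Dbp second dimmer probe: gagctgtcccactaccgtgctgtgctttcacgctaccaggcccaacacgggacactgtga
Nr1d1 probe: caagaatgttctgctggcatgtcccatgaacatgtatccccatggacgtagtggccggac
Nr1d2 probe: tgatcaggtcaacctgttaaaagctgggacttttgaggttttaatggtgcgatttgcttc

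Elements of the loop were looked for around the start sites. RefSeq's table for build GRCr8 held a promoter window for 9 of the 10 genes, 11 windows in all, and none for Cry1. Each window ran from 250 bases before the start to 50 bases after it, and 5 motifs were searched on both strands. The 3 stretches below, of 250 bases before the start, are shown because they hold the ROR element core TAGGTCA, the E-prime box CACGTT with the D-box TTATGTAA, and the E-box CACGTG, all in capitals. They lie at chr1:176766078-176766327 on the plus strand for Arntl, at chr9:99496994-99497243 on the minus strand for Per2 and at chr10:84229455-84229704 on the minus strand for the first of 2 Nr1d1 windows.
Arntl before the start: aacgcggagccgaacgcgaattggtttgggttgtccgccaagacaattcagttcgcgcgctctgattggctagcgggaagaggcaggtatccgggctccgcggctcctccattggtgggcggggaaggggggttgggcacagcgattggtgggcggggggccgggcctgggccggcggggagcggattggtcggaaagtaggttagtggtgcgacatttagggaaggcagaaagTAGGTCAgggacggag
Per2 before the start: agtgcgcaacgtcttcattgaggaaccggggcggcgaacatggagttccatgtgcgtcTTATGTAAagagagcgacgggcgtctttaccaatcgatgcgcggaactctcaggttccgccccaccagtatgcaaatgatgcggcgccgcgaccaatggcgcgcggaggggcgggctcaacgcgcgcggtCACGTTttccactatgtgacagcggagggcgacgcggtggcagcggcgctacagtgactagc
Nr1d1 before the start: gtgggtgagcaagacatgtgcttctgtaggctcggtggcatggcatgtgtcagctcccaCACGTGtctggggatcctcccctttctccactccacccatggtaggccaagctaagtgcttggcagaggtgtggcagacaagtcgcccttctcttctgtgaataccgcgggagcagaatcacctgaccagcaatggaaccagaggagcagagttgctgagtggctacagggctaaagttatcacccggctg

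The Arntl match began 16 bases before the start. The Per2 matches began 62 bases (CACGTT) and 192 bases (TTATGTAA) before it, and the Nr1d1 match began 191 bases before it. CACGTT also stood on the opposite strand 212 bases before the Cry2 start and 174 bases before the second Nr1d1 start. CACGTG was in 6.42% of all 33469 windows of this length, CACGTT in 4.83%, TAGGTCA in 2.63% and TTATGTAA in 0.893%. The cyclic AMP response element TGACGTCA, found in 1.83% of all windows, was in 0 of the members' windows. CACGTG and CACGTT differ in their last letter, so they cannot fall on the same place on 1 strand, and no matches found here overlapped. A match describes the letters alone.

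Values are log2 signals relative to the 75th percentile of the array's spots, so 0 stands for a spot at that percentile. On each array 61.7% to 66.7% of probes were well above background, and arrays correlated with each other at r of 0.986 to 0.991 across probes. The signal of repeated probes varied most on TCDD 1 and control 1, the arrays at position 1 of their slides, with coefficients of variation of 4.44% and 4.88%, against 2.92% to 3.44% on the other 6. All TCDD arrays lay on 1 slide, scanned at 1 time, and all control arrays on the other, so slide and group cannot be told apart. Of the 12 hypothalamus markers listed, 11 passed the filter on dim probes, and Otp was too dim. Markers of red blood cells were higher in the TCDD dams for 5 of 5 genes, at a median log2 fold change of 0.90 and none past the test. At an unadjusted limma p under 0.05, 4 of the 5 were called, all higher in TCDD dams, against 10.8% of all genes (1318 higher and 468 lower). The mean log2 signal of the 5 ran from 2.76 to 3.84 in TCDD dams and from 1.89 to 3.56 in control dams. Of 8 pituitary markers, 4 passed the filter and all 4 were higher in TCDD dams (median 0.85, 0 past the test), with a mean log2 signal of -2.00 to 1.41 in TCDD and -3.62 to 1.25 in control dams, while Prl, Gh1, Fshb and Pou1f1 did not pass the filter. The 5 thalamus markers had a median of 0.24, the 2 choroid plexus markers 0.04 and the 6 oligodendrocyte markers -0.12, with 0 past the test. The part of these cells in the results was not tested.

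None of the clock genes passed the test between TCDD and control dams. Nr1d1 and Nr1d2, which encode the nuclear receptors REV-ERBα and REV-ERBβ that repress Arntl, had log2 fold changes of 0.17 and 0.21, the largest of the members tested on the processed signals. Arntl itself differed by -0.0037, and the other 6 by between -0.06 and 0.14. In limma across 16574 genes, adjusted by Benjamini-Hochberg with 0.05 as the threshold, 0 of the 9 members that passed the filter were called, against 0.0241% of all genes. At an unadjusted p under 0.05, 2 of the 9 were called, both higher in TCDD dams, against 10.8% of all genes (1318 higher and 468 lower). For none of the 9 did the groups fail to overlap, against 7.05% of all genes. Of the 9, 5 were higher and 4 lower in TCDD dams, against 51.5% higher of all genes. With normexp background correction of the raw spot signals (offset 50) 4 were higher and 5 lower. Their median absolute log2 fold change was 0.085, against 0.074 over all genes.

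**Figure D1:**
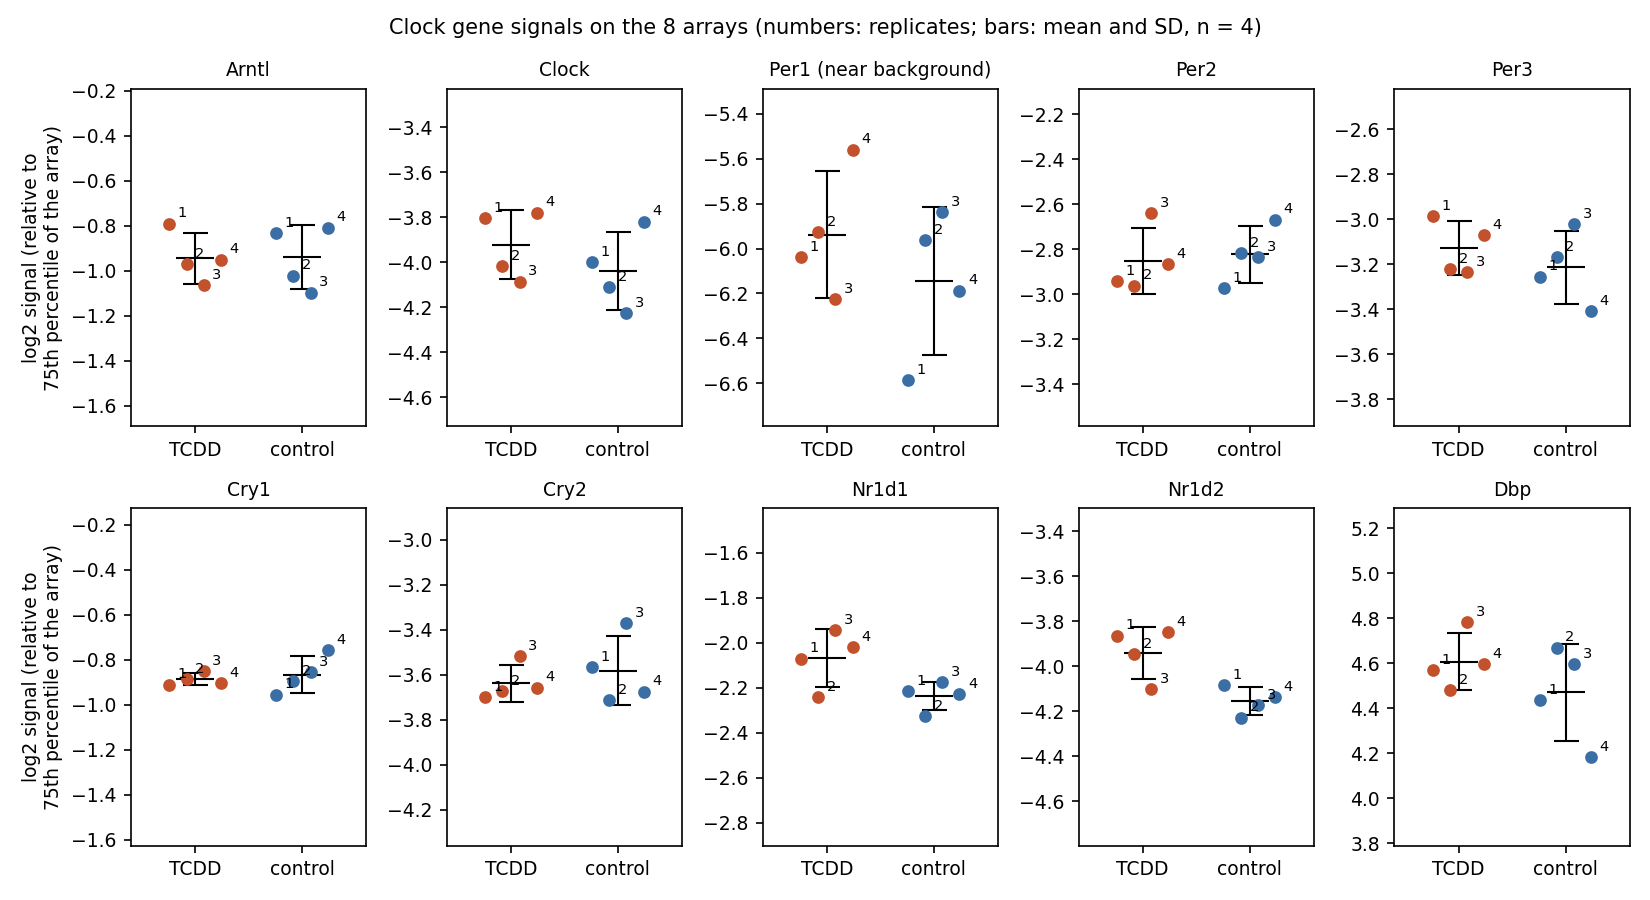
Log2 signal relative to the array's 75th percentile for the 10 clock genes, TCDD dams at the left and control dams at the right of each panel, with the replicate number beside each point and bars for the mean and SD (n = 4). Every panel spans the same log2 range, and the groups overlap in all 10.

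Arntl and Clock, the activators, differed between the groups by less than the spread between dams. Arntl had log2 signals of -0.79, -0.97, -1.06 and -0.95 in TCDD dams 1 to 4, against -0.83, -1.02, -1.10 and -0.81 in control dams 1 to 4. The high arrays were TCDD 1, control 4 and control 1, and the lowest was control 3, so each group held high and low dams. The replicate number was also the array's position on its slide. The array at position 3 was the lowest of each slide, and both arrays at position 1 were high. The part of position in this spread was not tested. In limma the fold of TCDD over control was 0.997, with a 95% interval of 0.868 to 1.15 and an adjusted p of 0.995. The dimmer Arntl probe, whose sequence is given above, differed by 0.01, and its lowest arrays were TCDD 4 and control 2. Clock had -3.80, -4.02, -4.09 and -3.78 in TCDD dams and -4.00, -4.11, -4.23 and -3.82 in control dams. As with Arntl, the array at position 3 was the lowest of each slide. TCDD 4, TCDD 1 and control 4 were the high arrays, and TCDD exceeded control by 0.12 on the log2 scale (SE 0.107, limma adjusted p = 0.778). With normexp, the Clock value was -0.0068 (adjusted p = 0.994). A second Clock probe differed by 0.09, and there control 1 was the highest array.

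Among the repressors of the Per family, Per2 and Per3 could be tested and Per1 could not. Per2 had log2 signals of -2.94, -2.96, -2.64 and -2.87 in TCDD dams, against -2.97, -2.82, -2.83 and -2.67 in control dams. TCDD 3 and control 4 were the high arrays, 1 in each group, and the difference between the groups was -0.03 (SE 0.092, limma adjusted p = 0.957). Per3 had -2.98, -3.22, -3.24 and -3.07 in TCDD dams and -3.25, -3.17, -3.02 and -3.41 in control dams. TCDD 1 was the highest array for Per3, and control 4, a high array for Per2, was the lowest. The difference of Per3 between the groups was 0.08 (SE 0.095, limma adjusted p = 0.826). The other 2 Per3 probes differed by 0.01 and -0.02, the last of them dim.

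Per1, the member of the family that responds quickly to light and other stimuli in the rodent suprachiasmatic nucleus, was near the limit of detection. Its single probe was well above background on 2 TCDD arrays (TCDD 2 and TCDD 4) and on 1 control array (control 2). It read -6.04, -5.93, -6.23 and -5.56 in TCDD dams, against -6.59, -5.96, -5.84 and -6.19 in control dams. The range over the 8 arrays, 1.03, was the widest of the members, and on the other 5 arrays the probe was not well above background. A fit over all 26269 gene names put the difference of Per1 at 0.21 (SE 0.198, limma adjusted p = 0.780), and normexp gave -0.16 (adjusted p = 0.948).

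The cryptochromes, which complete the repressor complex with the PER proteins, had little spread between dams in Cry1 and more in Cry2. Cry1 had log2 signals of -0.91, -0.89, -0.85 and -0.90 in TCDD dams and -0.96, -0.90, -0.86 and -0.76 in control dams, a range of 1.15-fold over the 8 arrays. Control 4 was the highest and control 1 the lowest, with all TCDD dams between them. Its difference between the groups was -0.02 (SE 0.055, limma adjusted p = 0.943), and its 95% interval as a fold was 0.904 to 1.08. Cry2 had -3.70, -3.68, -3.52 and -3.66 in TCDD dams, against -3.57, -3.71, -3.37 and -3.68 in control dams. Control 3 was the high array, and the difference was -0.06 (SE 0.084, limma adjusted p = 0.881).

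Nr1d1 and Nr1d2 were higher in most TCDD dams than in control dams, by amounts that did not pass the adjusted test. Nr1d1 had log2 signals of -2.07, -2.24, -1.94 and -2.02 in TCDD dams, against -2.21, -2.33, -2.18 and -2.23 in control dams. TCDD 2 lay among the control dams, and the other TCDD dams lay above all 4. The fold of TCDD over control was 1.12, with a 95% interval of 1.00 to 1.26 (limma adjusted p = 0.459). Nr1d2 had -3.86, -3.95, -4.10 and -3.85 in TCDD dams, against -4.09, -4.23, -4.17 and -4.14 in control dams. Here TCDD 3, the highest array for Nr1d1, was the one TCDD dam within the control range. The fold of TCDD over control was 1.16, with a 95% interval of 1.04 to 1.30 (limma adjusted p = 0.302). With normexp the log2 fold changes were 0.10 for Nr1d1 (limma adjusted p = 0.938) and 0.059 for Nr1d2 (adjusted p = 0.962). Dbp, at 0.13, then had the largest value of the members tested. The offset of 50 in that setting shrinks differences more in dim genes, such as these 2, than in bright ones such as Dbp. So this change of order may follow signal level, which was not tested.

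**Figure D2:**
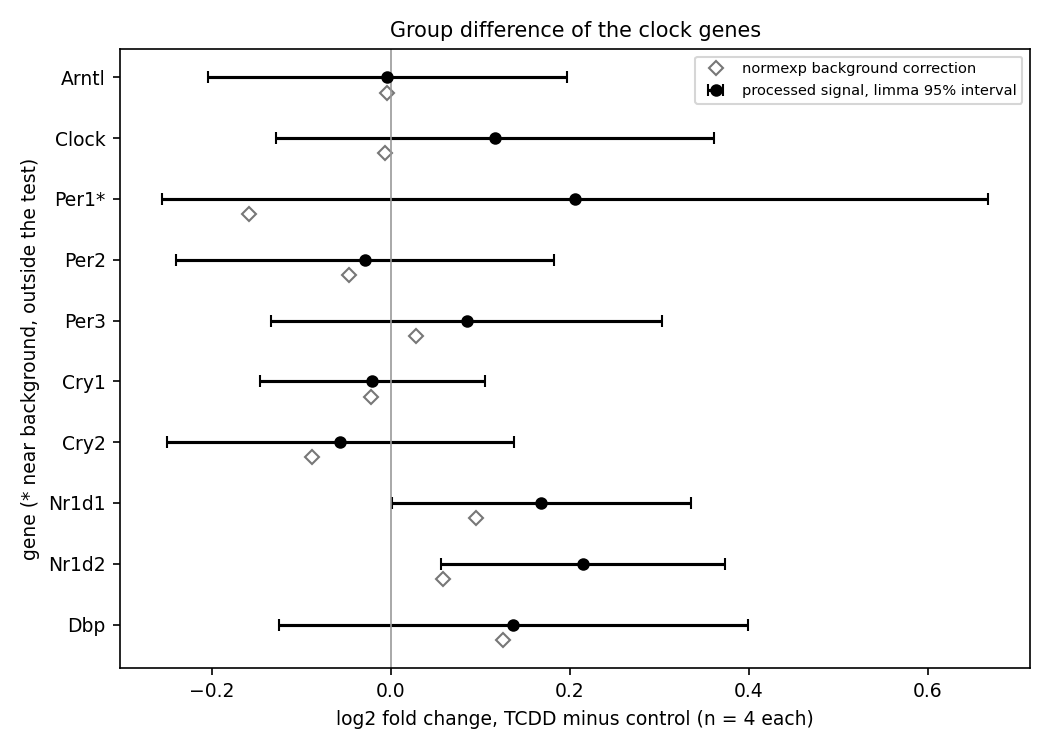
Log2 fold change (TCDD minus control, horizontal axis) of the 10 clock genes, in rows. Black points and bars are the limma estimates with 95% intervals (n = 4 dams in each group). Open diamonds are the estimates with normexp background correction (offset 50). All the intervals except those of Nr1d1 and Nr1d2 include 0, and the Per1 interval, from a gene near background, is the widest.

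Dbp, the transcription factor read here as the clock's output, varied more between dams of a group than between the group means. It had log2 signals of 4.57, 4.48, 4.78 and 4.60 in TCDD dams, against 4.44, 4.67, 4.60 and 4.18 in control dams. TCDD 3 was the highest array and control 4 the lowest, 1.52-fold apart. The groups differed by 0.14 on the log2 scale (SE 0.114, limma adjusted p = 0.751), and as a fold its 95% interval was 0.917 to 1.32. The 2 Dbp probes printed above differed by -0.01 (first) and 0.10 (second). Control 4 was the lowest array on all 3 Dbp probes, and TCDD 3 was the highest on 2 of them. On the first printed probe, control 1 was the highest. None of the members' spots was saturated.

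The spread of Dbp between dams was set against that of genes of like signal. Its SD within groups was 0.177 on the log2 scale, larger than that of 92.2% of the 500 tested genes nearest to it in mean signal. Over the alternatives this share ran from 82.8% to 97.8%. Arntl stood at 63.6%, Per2 at 47.6%, Per3 at 46.4%, Clock at 45.8%, Nr1d1 at 30.8%, Cry2 at 30.0%, Cry1 at 14.6% and Nr1d2 at 8.0%. These shares are descriptions. Dbp lies apart from the other members tested in this measure, and on the first printed Dbp probe the order of the high arrays was another.

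**Figure D3:**
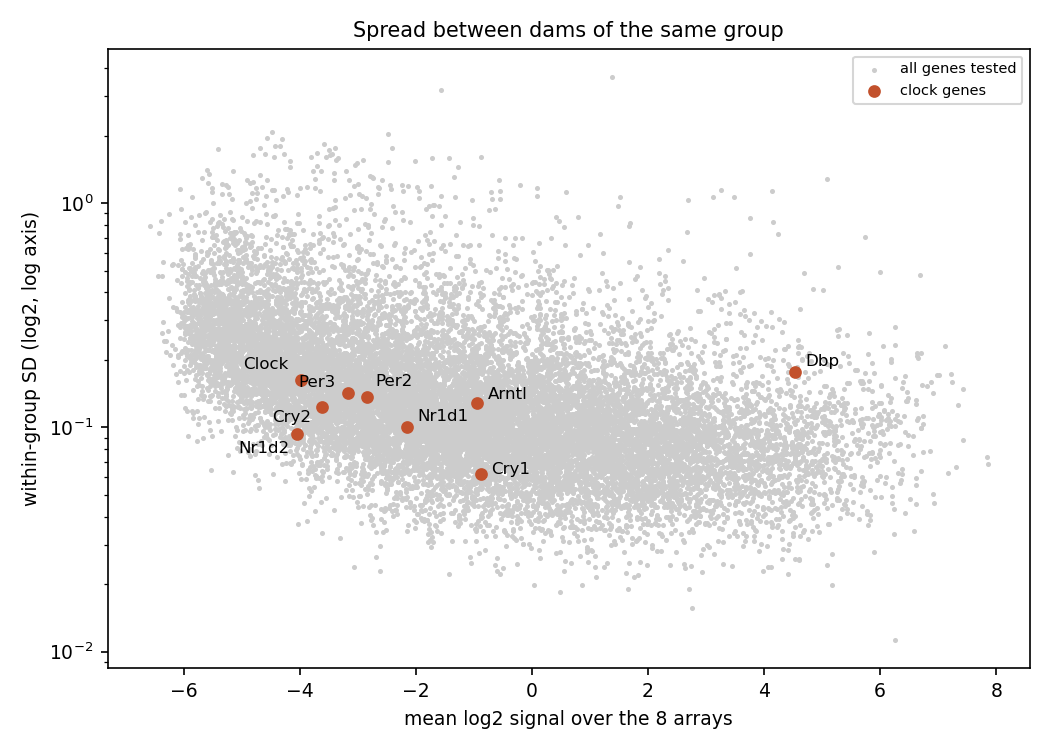
SD between dams within groups (vertical log axis, log2 units) against mean log2 signal of the probe over the 8 arrays, with all 16574 genes tested in grey and the 9 clock genes tested in colour. Dbp lies near the upper edge of the genes at its signal and Cry1 and Nr1d2 lie low.

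Whether the arrays differed in clock phase was read from Dbp and the Per genes against Arntl. The phase index was the mean log2 signal of Per1, Per2, Per3 and Dbp minus that of Arntl, so that a higher value means more of the Per and Dbp transcripts relative to Arntl. It was -1.06, -0.94, -0.77 and -0.78 in TCDD dams, against -1.26, -0.80, -0.68 and -1.21 in control dams. Controls 3, 2, 4 and 1 spanned the whole range, and all 4 TCDD dams lay inside it. The array at position 1 had the lowest index of each slide, and the part of position in the index was not tested. The group means were -0.88 ± 0.14 in TCDD and -0.99 ± 0.29 in control dams (SD, n = 4 each), a difference of 0.10 against a range of 0.58 over the 8 arrays. No test was made of a score over the members.

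Leaving Per1 out of the index, a choice made after its dimness was seen, gave 0.34, 0.40, 0.70 and 0.50 in TCDD dams and 0.24, 0.58, 0.68 and 0.18 in control dams. TCDD 3 then had the highest index, and controls 4 and 1 the lowest as before. Dbp minus Arntl alone was 5.36, 5.45, 5.85 and 5.55 in TCDD dams, against 5.27, 5.69, 5.69 and 4.99 in control dams. On this simplest form the lowest and highest arrays, control 4 and TCDD 3, were 1.81-fold apart, and the group means differed by 0.14.

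Across the 8 arrays Dbp was lower where Arntl was higher, a relation that did not pass the adjusted test. Pearson's r was -0.68 (exact permutation p = 0.0511, adjusted over 6 relations p = 0.307), and Spearman's rho was -0.74 (exact permutation p = 0.0458, adjusted p = 0.275). Without TCDD 1 and control 4, the 2 arrays farthest from the Arntl median, r was -0.73 (exact permutation p = 0.0931). On deviations from the group means it was -0.74, and no value is given within a slide, since each held 4 arrays and correlations were computed over at least 6. Over the alternatives, none of which took a dimmer Dbp probe alone, r ran from -0.84 to -0.41.

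The other 5 relations with Arntl were weaker. Pearson's r was -0.40 for Per1, -0.29 for Per2, -0.24 for Per3, -0.10 for Nr1d1 and 0.40 for Nr1d2, with exact permutation p-values of 0.338, 0.473, 0.567, 0.798 and 0.315 (adjusted 0.675, 0.681, 0.681, 0.798 and 0.675). Spearman's rho was -0.31, -0.38, -0.12, -0.05 and 0.52 in the same order of genes, with exact permutation p-values of 0.462, 0.360, 0.793, 0.935 and 0.197 (adjusted 0.693, 0.693, 0.935, 0.935 and 0.590). Without TCDD 1 and control 4 the r values were -0.45, -0.70, -0.48, -0.19 and 0.41, with exact permutation p-values of 0.360, 0.125, 0.349, 0.721 and 0.428. On deviations from the group means they were -0.42, -0.29, -0.25, -0.13 and 0.69. With normexp background correction the first 4 turned positive, to 0.60, 0.32, 0.17 and 0.34, and Nr1d2 gave 0.91 (exact permutation, adjusted p = 0.0174). That setting adds an offset of 50 before the log, a constant that weighs most on dim genes. The part of the offset in these r values was not tested. So the signs of the Per and Nr1d1 relations depend on the background correction taken with its offset. Those of Dbp, with r of -0.63 under normexp, and of Nr1d2 do not. Neither turned under any of the 14 alternatives run, where r ran from 0.18 to 0.91 for Nr1d2. With the mean of each gene's probes, r for Dbp was -0.57, and no alternative took a dimmer Dbp probe alone. On the first printed Dbp probe the highest array was control 1, an array high in Arntl.

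**Figure D4:**
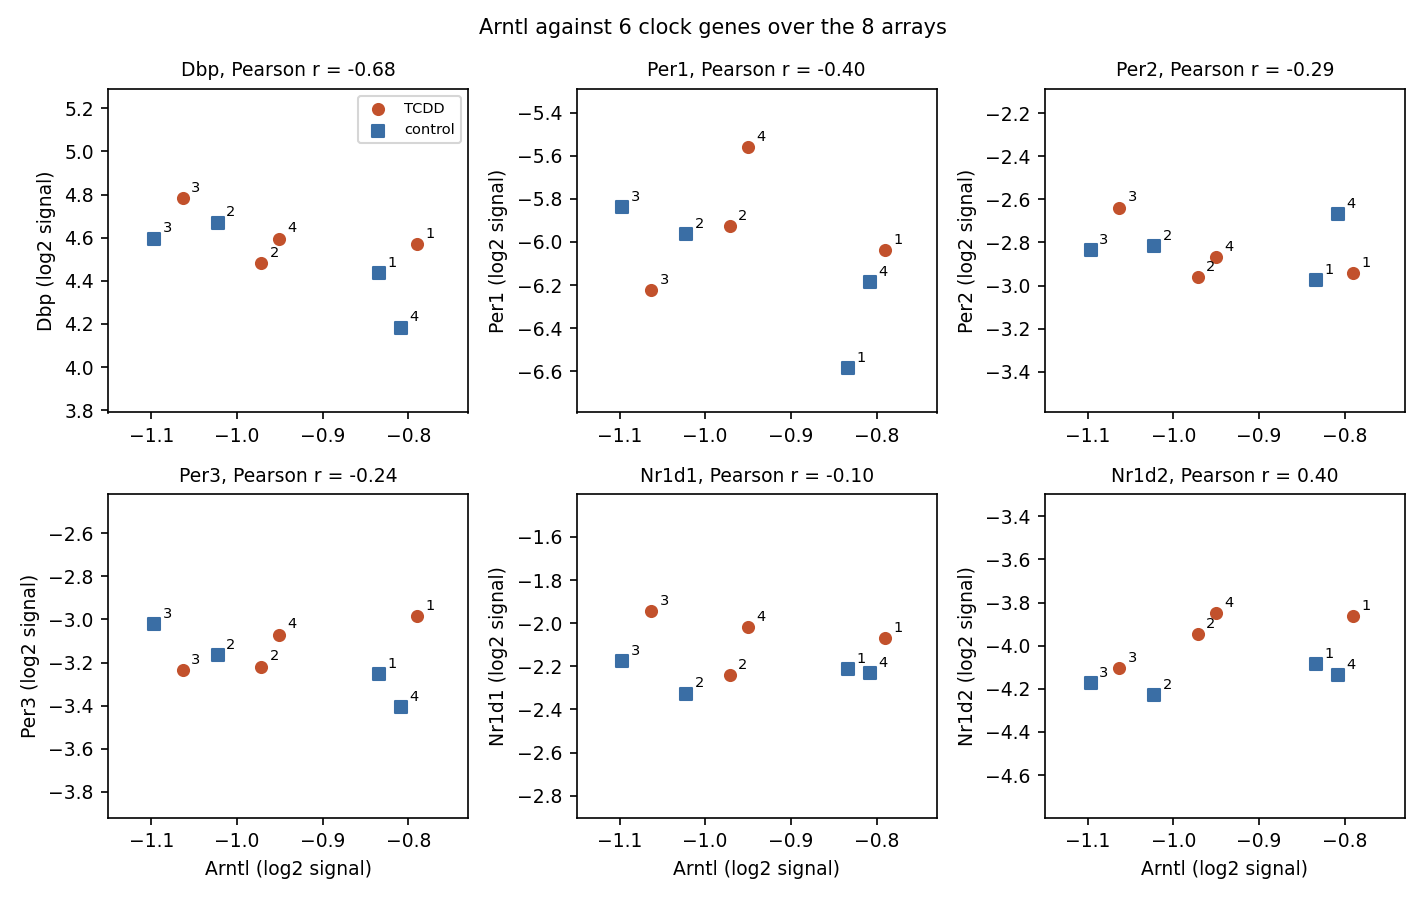
Log2 signal of Arntl (horizontal axis) against that of 6 clock genes (vertical axes, all of the same log2 span) on the 8 arrays, with TCDD dams as circles, control dams as squares and replicate numbers beside them. Dbp falls from left to right (r = -0.68), and the other panels have r from -0.40 to 0.40.

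The genes whose signals over the 8 arrays were most like those of Dbp and Arntl were taken from 11025 named genes well above background on all arrays. For Dbp they were Rab1 (Pearson's r = 0.99), Slc25a46 (0.98), Guf1 (0.96), Igsf21 (0.94) and Ramp3 (0.94). All of these had control 4 as the lowest array and TCDD 3 as the highest, as Dbp did. Rab1 and Slc25a46 ranged over only 0.20 and 0.21 on the log2 scale, against 0.60 for Dbp, and Ramp3 over 0.95. For Arntl they were Sobp (0.95), Unc5a (0.93), Srsf4 (0.93), Odz3 (0.92) and Btg1 (0.92). They were picked as the highest of 11025 values over 8 arrays, so they are a description.

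Other genes of the clock and of its regulation did not pass the test either. The list held 20 such genes, of which 16 were on the array by name. Of these 15 passed the filter, and 0 passed the limma test. In TCDD dams 9 had higher means and 6 lower ones, and the median difference was 0.03, against 0.0042 over all genes (7 higher, 8 lower and a median of -0.01 in the authors' table). The largest positive values were those of Rora (0.28) and Rorb (0.26), receptors that activate Arntl through the ROR element, and of Csnk1a1 (0.18), a casein kinase. Rorb had log2 signals of -3.01, -2.94, -2.84 and -2.88 in TCDD dams, against -3.49, -3.13, -3.07 and -3.00 in control dams, with only TCDD 1 inside the control range (limma adjusted p = 0.426). Rora had -3.96, -4.81, -4.50 and -4.52 in TCDD dams, against -4.90, -4.57, -4.70 and -4.73 in control dams, with TCDD 2 inside the control range (limma adjusted p = 0.629). With normexp the values were 0.07 for Rora and 0.14 for Rorb. The largest negative values were those of Prkaa1 (-0.11), Ccrn4l (-0.09) and Btrc (-0.07). In that order they encode a subunit of AMP-activated kinase, nocturnin, and part of the ligase that marks PER proteins for breakdown.

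Genes downstream of the clock split evenly by sign. Of 12 output genes tested, 6 had higher and 6 lower means in TCDD dams (median -0.01, 0 past the test). The largest positive values were 0.31 for Rgs16, 0.27 for Hlf, which encodes a D-box factor of the same family as DBP, and 0.24 for Cdkn1a. The largest negative values were -0.55 for Avp, which encodes vasopressin, -0.22 for Sgk1 and -0.12 for Nfil3, the D-box repressor. Avp is also among the hypothalamus markers, so its value cannot be assigned to clock output. Hlf read -4.77, -5.06, -4.67 and -4.91 in TCDD dams, against -5.29, -5.09, -5.01 and -5.09 in control dams, with TCDD 2 inside the control range. With normexp Hlf gave -0.02 and Rgs16 0.04. Tef, the remaining member of the DBP family, read 1.90 to 2.13 in TCDD dams and 1.95 to 2.01 in control dams.

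Markers of the suprachiasmatic nucleus were counted in the same way. Of 13 markers listed, 11 passed the filter, and 4 of these had higher and 7 lower means in TCDD dams (median -0.09, 0 past the test). The largest positive values were Six6 at 0.36 (0.08 with normexp), Rgs16 and Rorb, and the largest negative values were Avp, Syt10 at -0.28 and Grp at -0.22. Rgs16, Rorb and Avp are also in the lists above. The Avp value, from a gene also listed as a marker of the whole hypothalamus, cannot be assigned to this nucleus. Six6, a homeobox gene of the developing nucleus, was well above background on 4 TCDD and 3 control arrays, and ran from -5.93 to -4.75 in TCDD dams and from -6.16 to -4.96 in control dams. The mean log2 signal of the 11 markers ran from -2.31 to -1.96 in TCDD dams and from -2.28 to -1.87 in control dams. Those ranges overlap, and the part of these cells in the Dbp values was not tested.

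Genes that move with the state of the animal at death were described in the same way. Of 17 immediate early genes, 13 had higher and 4 lower means in TCDD dams (median 0.28, 0 past the test). Of all genes, 51.5% were higher, at a median of 0.0042. At an unadjusted limma p under 0.05, 8 of the 17 were called higher and 2 lower. Of all 16574 genes, 1318 were called higher and 468 lower, 10.8% in either direction. The mean log2 signal of these genes ran from -1.54 to -1.16 in TCDD dams and from -1.72 to -1.50 in control dams. Of 11 genes of the glucocorticoid response, 3 had higher and 8 lower means (median -0.16). Of 11 genes of the temperature response, 5 had higher and 6 lower means (median -0.0062, and 0.02 with normexp). In both lists 0 passed the test. At an unadjusted limma p under 0.05, the glucocorticoid list held 1 higher and 1 lower gene, and the temperature list 0. The part of all these genes in the clock gene values was not tested.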

How the data were processed

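Per the labels, hypothalamic total RNA of 4 TCDD and 4 control dams was labelled with Cy3 and hybridised to 1 Agilent array each. The labels number the replicates. The limma p-values set the group difference against the spread between samples of the same group. They hold no measure of the spread between slides, since each group lay on 1 slide. Per the file headers, each deposited scanner file holds linear spot intensities made with Agilent Feature Extraction 10.7.1.1, and the processed signal is background-subtracted. The authors also deposited a table of intensities, with a median of 65.1 in each of its 8 columns, the same sorted values in all 8 to a relative tolerance of 0.001 and r above 0.999 with the scanner values on each array. Its scale was that of linear signal. Its centring beyond equal distributions is unknown, and it served as an alternative. Probe positions are those of the file headers (rn4).

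For the main values, the 75th percentile over an array's 42877 non-control spots was subtracted from the log2 processed signal. It was 806 to 1077 on TCDD and 756 to 1051 on control arrays. The 1377 control spots were left out, and spots of a probe were averaged. The filter kept probes well above background on every array of 1 group or both (19102 probes, 14 of the members' 16). The brightest probe stood for its gene, which left 16574 genes. limma 3.58.1 in R 4.3.3 (lmFit and eBayes, group as the only term) gave 2-sided p-values with Benjamini-Hochberg adjustment over all genes. Correlations were tested by enumerating all 40320 pairings of the 8 arrays, which takes the arrays as exchangeable and makes no allowance for slide or position. All 10 members matched a current symbol (Arntl is now Bmal1). Promoter windows are RefSeq's (GRCr8).

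On simulated data for TCDD against control over 16574 genes, the test found 55.2%, 88.1% and 97.0% of the altered genes at log2 changes of 0.5, 1 and 2, and made 11 false calls. The simulated noise was drawn independently for each gene and array, with no slide or position effect. All differences of the members were smaller than 0.5, so these shares do not apply to changes of their size. The number of arrays limits precision. The alternatives concerned background correction, scaling, the authors' table, filter, probes, variance model, array weights, the replicate block and arrays left out. Normexp background correction added an offset of 50 to the corrected signals before the log, which shrinks the log2 differences of dim genes most. The rule for named genes took all 10 members, from 3 lists any gene past the test with the 3 largest positive and 3 largest negative log2 fold changes, and the 5 symbols most like Dbp and Arntl. Tef was named outside it, after its values were seen. The members, lists and tests were chosen with earlier results of these data known. The figures are from Python 3.11.15 and matplotlib 3.10.9.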

Additional observations from a re-analysis of the deposited data

How the results depend on the processing

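None of the 9 tested clock genes passed under any of the alternatives that were run, and their adjusted p-values lay between 0.238 and 0.999. Signs of small differences turned: Arntl with the mean of probes (0.0040) and with array weights (0.022), Per2 with array weights (0.016), and Clock (-0.0068) and Per1 (-0.16) with normexp. With 1 array left out in turn, the log2 fold change ran from -0.056 to 0.040 for Arntl, -0.10 to 0.023 for Per2, -0.050 to 0.016 for Cry1 and -0.10 to 0.014 for Cry2, and kept its sign for Clock (0.054 to 0.19), Per3 (0.020 to 0.15), Nr1d1 (0.13 to 0.23), Nr1d2 (0.18 to 0.27), Dbp (0.041 to 0.20) and the dim Per1 (0.059 to 0.31). The difference in the phase index ran from 0.012 (without control 1) to 0.21, and was -0.0089 with normexp, within the spread between dams.

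Correlations with Arntl turned with normexp for Per1 (0.60), Per2 (0.32), Per3 (0.17) and Nr1d1 (0.34), and for Nr1d1 also with median scaling (0.056) and with the dimmer Arntl probe (0.069, chosen after seeing the data). That of Nr1d2 became 0.91 with normexp (exact permutation, adjusted p = 0.0174). With 1 array left out they ran from -0.84 to -0.60 for Dbp, -0.31 to 0.24 for Nr1d1, 0.18 to 0.60 for Nr1d2, -0.57 to -0.21 for Per1, -0.70 to -0.038 for Per2 and -0.71 to 0.12 for Per3. The cause was not tested.

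Of all genes, limma called 4 in the main setting, 20 with normexp, 27 with median scaling, 28 with a variance trend, 67 with array weights, 2 without both position 1 arrays, and 0 with no filter (2032 at an unadjusted p under 0.05). Leaving out 1 array gave 0 to 8, with 0 without TCDD 2 or 3 or control 1, 2 or 4 (1350 to 2032 at an unadjusted p under 0.05), 1 without TCDD 4 and 8 without control 3. With the replicate number as a block 0 were called (2139 at an unadjusted p under 0.05). Deviations of same-numbered dams correlated at 0.228, -0.0031, -0.046 and 0.104 for replicates 1 to 4. Only the replicate 1 dams were each other's best match, and not every dam correlated best with its own number. The replicate number was also the array's position on its slide, so these values cannot decide whether the numbers pair the samples.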
